A study of Mus musculus with 10 samples.

Results

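Transcripts of 9 receptor genes were followed in 10 mouse mammary tumours, 5 given TMA-ARB and 5 given PBS. The genes were picked by name from a list of receptors that define mammary tumour subtypes: the ErbB family (Erbb2, Erbb3, Erbb4, Egfr), the growth factor receptors Met, Igf1r and Fgfr1, and the steroid hormone receptors Esr1 and Pgr. All 9 were found, among 37882 genes in the deposited table. TMA-ARB is a preparation of valsartan, an angiotensin receptor blocker, designed to become active within tumours. The treated group received valsartan at 40 mg/kg in that form by retro-orbital injection daily for 6 days (TMA-ARB replicates 6 to 10), and the control group an equal volume of PBS on the same schedule (control replicates 1 to 5). All 10 tumours were orthotopic growths of the MCa-M3C mammary line in FVB/N hosts, about 100 mm3 at assignment. The labels give neither the receptor status nor the driving oncogene of this line, and the ages and number of the hosts are not stated. Nor do they state that the libraries come from different animals, so p-values reflect library-to-library spread, which may be partly technical.

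The ErbB family is 4 related receptor tyrosine kinases that signal as pairs. The product of Erbb2, called HER2 in human tumours, binds no known ligand and acts through its partners, while that of Erbb3 has little kinase activity of its own and is a receptor for neuregulins. Met is the receptor for hepatocyte growth factor, Igf1r for insulin-like growth factors and Fgfr1 for fibroblast growth factors. Esr1 and Pgr encode the oestrogen and progesterone receptors, nuclear transcription factors of luminal mammary epithelium, and with Erbb2 they are the classical markers by which breast tumours are assigned to subtypes.

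Counts differed widely between the receptors, and Erbb3, Erbb4 and Pgr held too few to be tested. Library totals ran from 12742953 to 16884621 estimated counts. Fgfr1 held 3119 to 8178 counts per library, Met 1546 to 2998, Igf1r 708 to 2909, Erbb2 479 to 682, Egfr 268 to 579 and Esr1 18 to 58. Erbb3 held 107 counts in all, Pgr 35 and Erbb4 0. Mitochondrially encoded genes and epithelial genes moved with some of the results. Mitochondrially encoded genes took 2.22% to 24.97% of counts in TMA-ARB tumours and 2.07% to 6.63% in controls (exact permutation p = 0.143, two-sided). TMA-ARB replicate 6 stood apart in epithelial genes: 9 of 10 luminal epithelial markers were at their highest there. Their sum, 247 CPM there, was 243 CPM in TMA-ARB replicate 8 and 199 CPM in TMA-ARB replicate 9. Krt18 alone was at 92.4, 201 and 168 CPM in TMA-ARB replicates 6, 8 and 9. It made up most of the sum in replicates 8 and 9 but not in replicate 6. The sum ran from 107 to 247 CPM in TMA-ARB tumours and 84.1 to 159 CPM in controls (exact permutation p = 0.111). Of 6 luminal markers tested 5 were positive and 0 were called, with a median log2 fold change of 0.97 in the fit that includes TMA-ARB replicate 6. Over all tested genes 52.8% were positive and the median was 0.02. Marker sums ran from 5260 to 6182 CPM in TMA-ARB tumours and 5073 to 6584 CPM in controls for fibroblasts and mural cells. For leukocytes they ran from 185 to 504 CPM in TMA-ARB tumours and 290.3 to 522 CPM in controls (exact permutation p = 0.413), and for endothelium from 229 to 309 CPM in TMA-ARB tumours and 279 to 446 CPM in controls (exact permutation p = 0.0794). Of 7 endothelial markers 2, Flt1 and Plvap, were lower at an edgeR unadjusted p under 0.05 (0.0248 and 0.0279, adjusted p = 0.997 for both). Of all tested genes 1.66% were. By sign 5 of the 7 were negative and 2, Kdr and Tek, positive (log2 fold change 0.32 and 0.18). At such a p 1 of 6 luminal and 1 of 2 basal or myoepithelial markers tested were higher, as were 1.59% of all tested genes. Likewise 1 of 9 fibroblast or mural and 1 of 3 skeletal muscle markers tested were lower. These 4 endothelial genes were named after their values were seen, and the part of endothelial content in the results was not tested. These are bulk tumours, in which fewer cells of a type and less RNA per cell cannot be told apart. CPM is the depth-scaled count, with library sizes adjusted by the trimmed mean of M-values (TMM).

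The receptors spanned a wide range of levels, from Fgfr1 to the undetected Erbb4 (plot of receptor and ligand levels). Levels were compared per kb of exon, as CPM divided by the total length of a gene's annotated exons. Fgfr1 was highest at 37.4 ± 8.40 CPM per kb (mean ± SD, n = 10), above 89.6% of the tested genes. Met followed at 19.5 ± 3.45, and was below Fgfr1 in 9 of 10 libraries. Erbb2 at 7.68 ± 1.01 and Igf1r at 7.52 ± 3.28 were the next, and Egfr lay at 2.44 ± 0.561, below Igf1r in 10 of 10 libraries. Esr1 was at 0.186 ± 0.0591 CPM per kb, above only 2.12% of tested genes. Erbb3 averaged 0.113 ± 0.169, Pgr 0.0260 ± 0.0554 and Erbb4 0. The median tested gene was at 4.76 CPM per kb.

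Neighbours in that order were not all separable. Erbb2 was above Igf1r in 5 of 10 libraries, so those genes had no fixed order, and with the length of the longest transcript in place of all exons Igf1r was at 11.1 and Erbb2 at 7.98. Met and Erbb2 did not overlap over the 10 libraries, nor did Egfr and Esr1. The ranges of Esr1, Erbb3 and Pgr overlapped. Among the 9 receptors, Fgfr1 made up 37.2% to 55.5% of the summed level per kb in TMA-ARB and 48.5% to 57.6% in control tumours. The share of Erbb2 was 8.67% to 12.9% in TMA-ARB and 8.30% to 11.5% in control tumours.

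**Figure D1:**
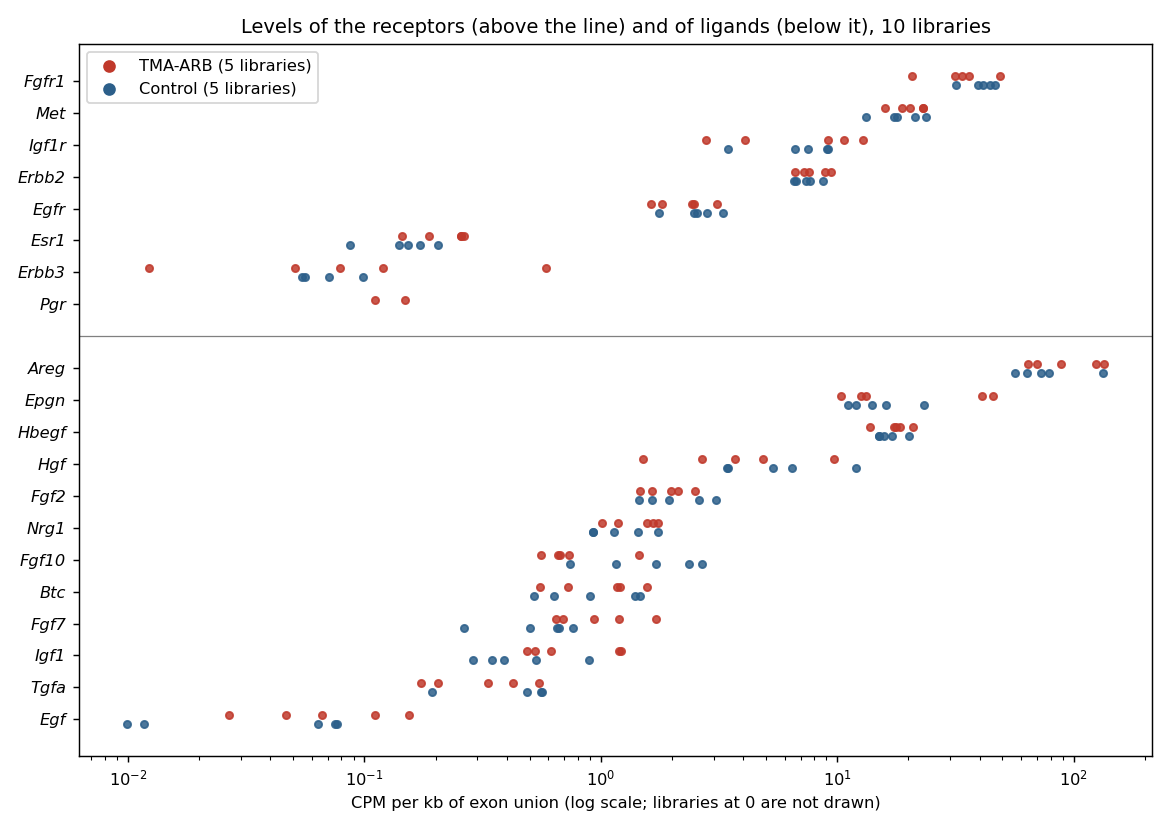
Levels of 8 receptors (above the line) and 12 ligands (below it) in CPM per kb of exon on a log axis, with a point per library (TMA-ARB red, control blue); Erbb4, at 0 in all libraries, is left out, as are single libraries at 0. Fgfr1 and Met lie to the right, Erbb2, Igf1r and Egfr in the middle, and Esr1, Erbb3 and Pgr at the left edge, with the 2 groups over each other in most rows.

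Upstream sequences are shown for Met and Igf1r, growth factor receptors with high levels here, and for both hormone receptors, which were low, to set the sequence beside the levels. These genes were picked with their levels known. RefSeq start sites on build GRCm38.p6 matched 7 of the 9 receptors; Erbb3 and Fgfr1 had no entry. Each run is the 250 bases before the RefSeq start site, 5′ to 3′ on the strand of the gene. These sites differ in part from the GENCODE gene starts given below. The Esr1 window lies inside its annotated gene, which starts at 4611593. That of Met runs past its gene start of 17463800, and that of Igf1r ends short of 67952827. That of Pgr ends directly before its gene start. The windows are thus not placed alike on the annotated genes. Capitals mark GGGCGG (the GC box, a binding sequence of Sp1-type factors) and CAGGTG (an E-box), on either strand, neither overlapping the other here.
Met, chr6:17463707-17463956, plus strand: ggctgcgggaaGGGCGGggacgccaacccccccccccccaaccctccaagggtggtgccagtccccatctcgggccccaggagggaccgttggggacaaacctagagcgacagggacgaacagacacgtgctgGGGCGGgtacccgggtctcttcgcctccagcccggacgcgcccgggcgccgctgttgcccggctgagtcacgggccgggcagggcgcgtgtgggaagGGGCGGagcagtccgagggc
Igf1r, chr7:67952007-67952256, plus strand: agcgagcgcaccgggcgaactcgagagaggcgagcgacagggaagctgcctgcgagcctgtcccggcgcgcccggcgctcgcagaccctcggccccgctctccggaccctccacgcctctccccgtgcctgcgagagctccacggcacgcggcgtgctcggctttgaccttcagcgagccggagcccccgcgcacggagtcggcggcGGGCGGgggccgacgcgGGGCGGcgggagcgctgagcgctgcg
Esr1, chr10:4611739-4611988, plus strand: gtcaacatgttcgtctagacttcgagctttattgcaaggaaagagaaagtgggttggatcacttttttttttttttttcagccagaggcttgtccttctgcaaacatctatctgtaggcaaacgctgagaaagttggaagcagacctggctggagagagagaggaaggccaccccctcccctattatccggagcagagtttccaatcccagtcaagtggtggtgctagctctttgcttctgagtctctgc
Pgr, chr9:8899583-8899832, plus strand: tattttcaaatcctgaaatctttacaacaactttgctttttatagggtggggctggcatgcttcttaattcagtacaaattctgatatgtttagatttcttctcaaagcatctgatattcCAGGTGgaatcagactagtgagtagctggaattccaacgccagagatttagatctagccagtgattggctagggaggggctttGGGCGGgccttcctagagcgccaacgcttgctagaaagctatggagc

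The GC share was 74.0% for Met and 77.6% for Igf1r, with 24 and 42 CpG pairs. It was 47.6% for Esr1 and 43.6% for Pgr, with 4 CpG pairs in each. The median over 32851 promoters was 52.4% and 6 pairs. Erbb2 had 66.0%, Egfr 60.8% and Erbb4, which had no counts, 54.0%. The GC box was found 3 times upstream of Met, 2 times upstream of Igf1r, and 1 time each for Egfr and Pgr. It was found 0 times for Erbb2, Erbb4 and Esr1, and 32.7% of all promoters held it. Mean levels of Erbb2 and Igf1r were near each other, at 7.68 and 7.52 CPM per kb. CAGGTG was found only upstream of Pgr among the 7, against 17.2% of all promoters, and TATAAA (the letters of the TATA box) likewise, against 12.4%. That TATAAA match lies on the strand opposite to the gene, toward the end of the window farther from the start site. It is not marked above. The palindromic oestrogen response element was found in none of the 7 and in 0.0639% of all promoters. These are matches of letters in a short window and not measured binding sites.

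The comparison asked whether receptor transcripts differed after the drug. None of the 9 was called, and the 95% intervals of the 6 that could be tested all included 0. With edgeR's quasi-likelihood test over 14063 genes, 0 genes passed an adjusted p of 0.05 in all (0%), and 457 (3.25%) had an unadjusted p under 0.05; no receptor was among them. By direction, 1.59% were higher and 1.66% lower. DESeq2 called 2 genes (0.00837%) and had 3.46% at an unadjusted p under 0.05; no receptor was called, and Pgr alone of the 9 was under 0.05 before adjustment. Of the 6 receptors tested, 4 were positive and 2 negative, with a median log2 fold change of 0.11, against 52.8% positive and a median of 0.02 over all tested genes. The adjusted p was 0.997 for each of the 6. The groups overlapped for all 9 receptors; over all tested genes 0.526% did not overlap. Erbb3, Erbb4 and Pgr were below the low-count filter and have no fitted value in that test.

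**Figure D2:**
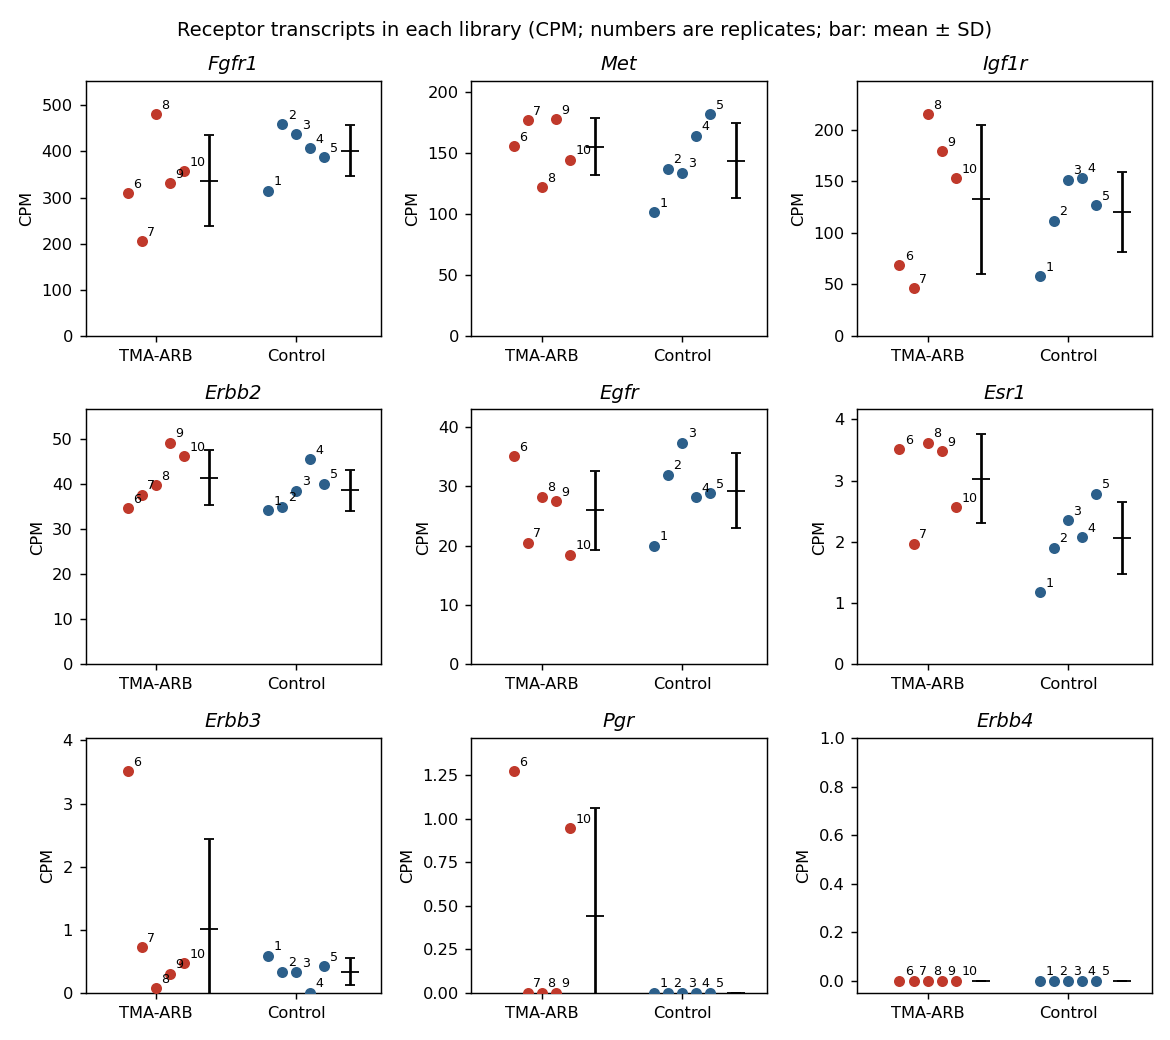
Each panel gives the CPM of 1 receptor, with a point per library numbered by replicate (TMA-ARB left, control right) and the mean ± SD (n = 5) as a bar; axes start at 0. Igf1r spans 46.6 to 215 CPM in TMA-ARB tumours, while Erbb2 stays between 34.6 and 49.1 CPM; the raised Erbb3 point is TMA-ARB replicate 6.

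Erbb2 (ENSMUSG00000062312, chr11:98412470-98437716, plus strand) was the steadiest of the receptors. It measured 34.6, 37.6, 39.7, 49.1 and 46.1 CPM in TMA-ARB replicates 6 to 10, against 34.2, 34.9, 38.4, 45.4 and 40.0 CPM in control replicates 1 to 5. The groups lay over each other, and the highest tumour was 1.44 times the lowest. The coefficient of variation over the 10 libraries was 13.1%, above that of only 4.98% of the 10859 genes with a mean of at least 5 CPM (median 25.6%). The means were 41.4 ± 6.03 CPM under TMA-ARB and 38.6 ± 4.52 CPM in controls (SD, n = 5 each). The log2 fold change was 0.10 ± 0.16 (SE), with a 95% interval of -0.25 to 0.45, so a change of 1.37-fold upward or to 0.841 of control lay at its bounds. Leaving out TMA-ARB replicate 9 gave 0.04, and leaving out control replicate 4 gave 0.17.

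Erbb3 (ENSMUSG00000018166, chr10:128567523-128589652, minus strand) was close to the limit of counting. It held 58, 11, 1, 3 and 7 counts in TMA-ARB replicates 6 to 10, against 9, 6, 5, 0 and 7 counts in control replicates 1 to 5. A single treated tumour thus carried 58 of 107 counts, at 3.51 CPM, where the other treated tumours were at 0.0739 to 0.724 CPM and the controls at 0 to 0.592 CPM. Without it the treated mean was 0.395 ± 0.274 CPM (n = 4), against 1.02 ± 1.41 CPM with it and 0.336 ± 0.216 CPM in controls (SD). The difference of means was 0.682 CPM (exact permutation p = 0.349, two-sided, n = 5 each). Erbb4, another neuregulin receptor (ENSMUSG00000062209, chr1:68032186-69108059, minus strand), had 0 counts in every library. A count of 0 allows up to 3 counts, or 0.168 to 0.308 CPM depending on the library.

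Egfr (ENSMUSG00000020122, chr11:16752203-16918158, plus strand), the receptor for epidermal growth factor, measured 35.1, 20.5, 28.2, 27.5 and 18.4 CPM in TMA-ARB replicates 6 to 10, against 19.98, 32.0, 37.3, 28.1 and 28.9 CPM in control replicates 1 to 5. Both groups spanned nearly the same range. The log2 fold change was -0.17 ± 0.22 (95% interval -0.65 to 0.30), and with single libraries left out it ran from -0.30 (TMA-ARB replicate 6) to -0.06 (TMA-ARB replicate 10). Within libraries the log2 ratio of Erbb2 to Egfr, per kb, was 1.82 ± 0.499 under TMA-ARB and 1.54 ± 0.328 in controls, a difference of 0.28 (exact permutation p = 0.302, adjusted p = 0.550 over 4 ratios of receptors).

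Met (ENSMUSG00000009376, chr6:17463800-17573980, plus strand) measured 156, 177, 122, 178 and 145 CPM in TMA-ARB replicates 6 to 10, against 102, 137, 134, 164 and 182 CPM in control replicates 1 to 5. The highest value of the 10 was a control. Its means were 155 ± 23.3 CPM under TMA-ARB and 144 ± 30.8 CPM in controls, a log2 fold change of 0.11 ± 0.19 (95% interval -0.29 to 0.52) that ran from 0.0092 (control replicate 1) to 0.21 (control replicate 5) with single libraries left out. Fgfr1 (ENSMUSG00000031565, chr8:25513654-25575718, plus strand) measured 309.9, 205, 481, 332 and 357 CPM in TMA-ARB replicates 6 to 10, against 315, 459, 438, 407 and 388 CPM in control replicates 1 to 5. In 4 of 5 treated tumours it was below the control mean, yet the highest of all 10 values was TMA-ARB replicate 8. The log2 fold change of -0.25 ± 0.22 had a 95% interval of -0.72 to 0.21, and with single libraries left out it ran from -0.41 (TMA-ARB replicate 8) to -0.11 (TMA-ARB replicate 7).

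Igf1r (ENSMUSG00000005533, chr7:67952827-68233668, plus strand) varied most among the well measured receptors. It measured 68.6, 46.6, 215, 179 and 153 CPM in TMA-ARB replicates 6 to 10, against 58.0, 112, 151, 154 and 127 CPM in control replicates 1 to 5. Both groups held low and high tumours, and the highest was 4.61 times the lowest. Its coefficient of variation of 43.6% was above that of 87.5% of genes with a mean of at least 5 CPM. The log2 fold change was 0.14 ± 0.39, and the 95% interval of -0.72 to 0.99 spans changes of 0.609 to 1.99 times the control level. Without TMA-ARB replicate 8 it was -0.11 and without control replicate 1 it was -0.04, so its sign rested on single tumours.

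Esr1 (ENSMUSG00000019768, chr10:4611593-5005614, plus strand) was detected in all 10 tumours at a low level. It measured 3.51, 1.97, 3.62, 3.49 and 2.57 CPM in TMA-ARB replicates 6 to 10, against 1.18, 1.91, 2.35, 2.08 and 2.79 CPM in control replicates 1 to 5. In 4 of 5 treated tumours it was above the control mean, and 3 of them were above every control. The means were 3.03 ± 0.728 CPM under TMA-ARB and 2.06 ± 0.594 CPM in controls, with a log2 fold change of 0.55 ± 0.40 (95% interval -0.30 to 1.40). Neither edgeR (unadjusted p = 0.186) nor the exact permutation test (p = 0.0635) passed. Pgr (ENSMUSG00000031870, chr9:8899833-8968611, plus strand), a target gene of the oestrogen receptor, had 21 counts in TMA-ARB replicate 6, 14 in TMA-ARB replicate 10 and 0 in each of the other 8 tumours, all controls included. The exact permutation p was 0.444. Fitted without the low-count filter it had an edgeR unadjusted p of 0.00644 (adjusted p = 0.730), where 5.97% of 23981 genes were under 0.05.

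**Figure D3:**
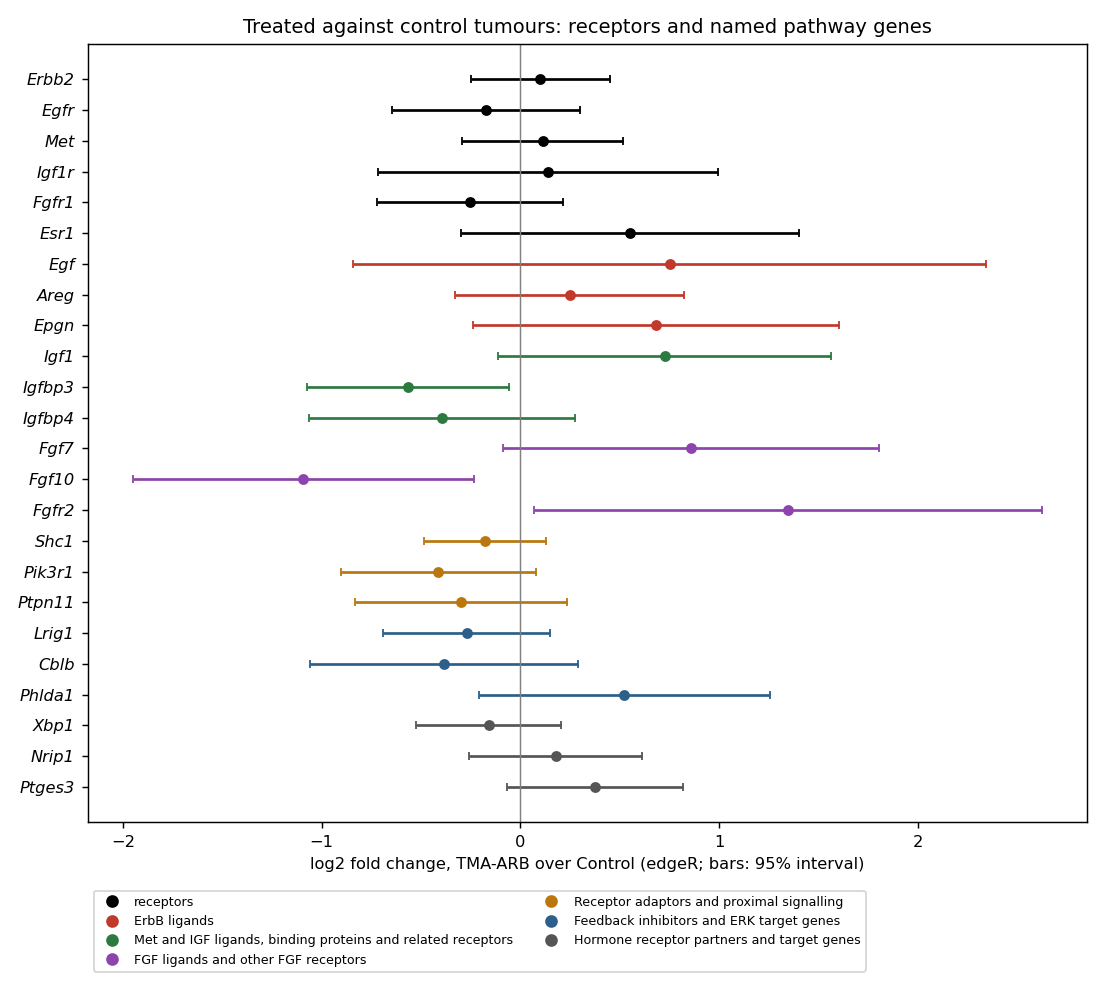
Log2 fold changes of TMA-ARB over control from edgeR, with 95% intervals as bars, for the 6 tested receptors (black) and for the 3 genes of smallest p in each of 6 pathway lists (colours by list). The intervals of all 6 receptors cross 0; those of Igfbp3, Fgf10 and Fgfr2 do not, and none of these 3 passed after adjustment.

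Erbb3 and Pgr were at their highest in TMA-ARB replicate 6, as were 9 of 10 luminal epithelial markers, while Esr1 was at 3.51 CPM there and 3.62 CPM in TMA-ARB replicate 8 (plot of low receptors and luminal markers). Epcam, an epithelial adhesion gene, was at 12.05 CPM there, against 0.517 to 2.50 CPM in the other treated tumours and 0.910 to 3.07 CPM in controls. Krt19, a luminal keratin, was at 51.6 CPM, against 0.526 to 8.42 CPM in the other treated tumours and 0 to 9.61 CPM in controls. Esrp1, an epithelial splicing regulator, had 2.30 CPM there, 0 CPM in the other treated tumours and at most 0.0607 CPM in controls. Krt18 was the marker that was not highest there, at 92.4 CPM against 201 CPM in TMA-ARB replicate 8. The markers named here, and Prlr and Foxa1, were picked after their values were seen. In replicate 6, Prlr, the prolactin receptor gene, was at 10.5 CPM (0.132 to 2.84 CPM in the other treated tumours and 0 to 1.64 CPM in controls), and Foxa1, a luminal transcription factor that opens chromatin for the oestrogen receptor, was at 3.76 CPM (0 to 0.946 CPM in the other treated tumours and 0 to 0.850 CPM in controls). The milk protein genes summed to 9.15 CPM in replicate 6 and to at most 2.43 CPM elsewhere. The part of cell composition in these values was not tested. An edgeR fit with the mean log2 CPM of the tested luminal markers as a covariate called 0 genes. In that fit the log2 fold change was 0.15 for Erbb2, -0.36 for Egfr and 0.15 for Met. It was 0.13 for Igf1r, -0.34 for Fgfr1 and 0.43 for Esr1.

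**Figure D4:**
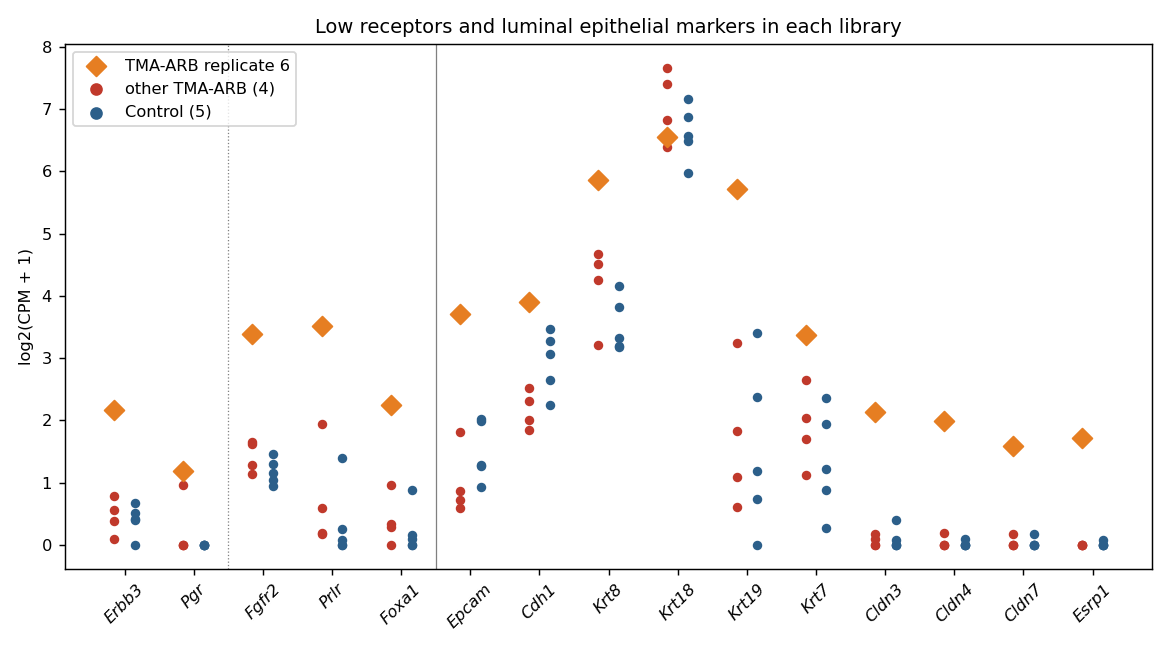
Log2(CPM + 1) of 5 receptor-related genes and 10 luminal epithelial markers, with a point per library; the large diamond is TMA-ARB replicate 6, other TMA-ARB tumours are red and controls blue. The diamond is the highest point for Erbb3, Pgr and 9 of 10 markers, while Krt18 is highest in another tumour.

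The levels of Igf1r and Erbb2 ran with the mitochondrial share over the 10 libraries (plot of level against share). Of 6 receptors examined, Erbb2 had a Pearson r of 0.90 between log2 CPM and the log2 share (permutation p = 0.00038, adjusted p = 0.00228 over 6) and a Spearman rho of 0.90 (adjusted p = 0.00468). Without TMA-ARB replicates 9 and 10, the libraries farthest from the median share, r was 0.77 (n = 8), and with each group's mean removed it was 0.90. For Igf1r, r was 0.76 (permutation p = 0.0112, adjusted p = 0.0337) and rho 0.83 (adjusted p = 0.0143), with r of 0.78 without those libraries and 0.84 with group means removed. Esr1 had r of 0.55 (adjusted p = 0.200), Met 0.24, Fgfr1 0.22 and Egfr -0.09 (adjusted p 0.669 to 0.796). An r at least as high as that of Erbb2 was reached by 2.09% of 10859 genes, and one as high as that of Igf1r by 9.03%. The scaling enters this relation: in scalings added after seeing the data, as a share of all counts with no TMM, r was 0.16 for Erbb2 (permutation p = 0.653) and 0.62 for Igf1r (p = 0.0533), and as a share of the counts outside mitochondrially encoded genes it was 0.78 (p = 0.00857) and 0.72 (p = 0.0178). In tumours above a 5% share Igf1r was at 153 to 215 CPM under TMA-ARB (n = 3) and 151 to 154 CPM in controls (n = 2); below it was at 46.6 to 68.6 CPM under TMA-ARB (n = 2) and 58.0 to 127 CPM in controls (n = 3).

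**Figure D5:**
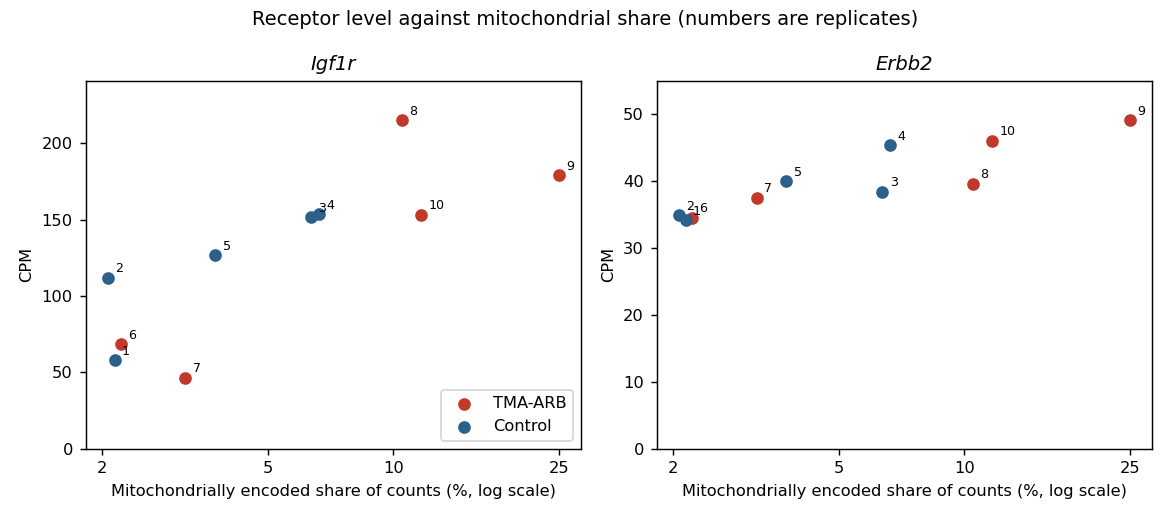
CPM of Igf1r (left) and Erbb2 (right) against the mitochondrially encoded share of counts (log axis), with a point per library numbered by replicate, TMA-ARB red and control blue. The 5 libraries above 5% hold Igf1r at 151 to 215 CPM, above all those below it; for Erbb2 the sides overlap.

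When the log2 share entered the fit as a covariate, the log2 fold change of Igf1r was -0.52 (edgeR unadjusted p = 0.067, adjusted p = 0.886) and that of Erbb2 -0.05, both opposite in sign to the values without it. The receptors also ran with each other to different degrees, given as a description over 10 libraries that share their scaling: Igf1r with Fgfr1 at r = 0.78, Erbb2 with Igf1r at 0.66 and Met with Fgfr1 at -0.32. Among 10859 genes with a mean of at least 5 CPM, the nearest in pattern to Igf1r were B2m (r = 0.99, rho 0.98), Kmt2e (0.98, 0.98) and Ahnak2 (0.98, 0.98). For Fgfr1 they were Med13l (0.97, 0.95), Zfand3 (0.97, 0.98) and Mical3 (0.96, 0.95). For Met they were Cep89 (0.94, 0.92), Slc5a3 (0.93, 0.90) and Galnt4 (0.91, 0.96). For Erbb2 they were 2700097O09Rik (0.97, 0.93), Dctn6 (0.95, 0.90) and Ankrd29 (0.95, 0.93), and for Egfr Osbpl11 (0.97, 0.88), Fhl1 (0.92, 0.94) and Bmp2k (0.90, 0.82). These are the highest of many correlations and carry no test.

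Ligands of the ErbB family were measured beside their receptors. Of 11 listed, 7 were tested, 0 were called in either direction, 6 were positive, and the median log2 fold change was 0.21. Over all tested genes 52.8% were positive and the median was 0.02. Areg, which encodes amphiregulin, a ligand of Egfr and an oestrogen target in mammary gland, was the most abundant at 88.6 ± 30.3 CPM per kb (SD, n = 10), above every receptor. Epgn (epigen) was at 19.9 ± 12.9 and Hbegf (heparin-binding EGF-like growth factor) at 17.1 ± 2.31 CPM per kb. Areg averaged 117 ± 38.6 CPM under TMA-ARB and 98.4 ± 36.7 CPM in controls, a log2 fold change of 0.25 ± 0.27 (0.10 without TMA-ARB replicate 8 and 0.50 without control replicate 2). Epgn was at 82.5 and 74.0 CPM in TMA-ARB replicates 7 and 8 and at 18.8 to 23.9 CPM in the other treated tumours, against 20.02 to 42.2 CPM in controls (log2 fold change 0.68 ± 0.42; 0.34 without TMA-ARB replicate 7). Nrg1, a neuregulin that binds the products of Erbb3 and Erbb4, was at 1.33 ± 0.333 CPM per kb. Egf itself was at 0.0642 ± 0.0448 CPM per kb with 99 counts in all (log2 fold change 0.75 ± 0.74; 0.40 without TMA-ARB replicate 9). Hbegf and Nrg1 here, and Hgf and Greb1 in the other lists, were named after their values were seen. Ereg, Nrg2 and Nrg4 were below the filter and Nrg3 had 0 counts.

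Among genes around Met and Igf1r, 11 of 14 were tested, 0 were called, 1 was lower at an unadjusted p under 0.05 (1.66% of all tested genes were), and the median log2 fold change was -0.05. That gene was Igfbp3, a binding protein that holds insulin-like growth factors. It was at 244.9, 389, 582, 395 and 346 CPM in TMA-ARB replicates 6 to 10, against 436, 752, 659, 556 and 495 CPM in control replicates 1 to 5. In 4 of 5 treated tumours it was below every control, with a log2 fold change of -0.57 ± 0.24 (edgeR unadjusted p = 0.0314, not passing at an adjusted p of 0.997). Igfbp4 averaged 2549 ± 1277 CPM under TMA-ARB and 3347 ± 556 CPM in controls (-0.39 ± 0.31). Its log2 fold change was -0.68 without TMA-ARB replicate 8 (edgeR unadjusted p = 0.0322), -0.23 without TMA-ARB replicate 6 or 7, and -0.82 with the mitochondrial share as a covariate (unadjusted p = 0.0131), with adjusted p of 0.914, 0.841, 0.935 and 0.886 for these 4 fits. Unadjusted p was under 0.05 for 689 of 14335 genes without TMA-ARB replicate 8 and for 743 of 14063 with the covariate. Igf1, a ligand of Igf1r, averaged 8.01 ± 3.63 CPM under TMA-ARB and 4.85 ± 2.39 CPM in controls (0.73 ± 0.39, 95% interval -0.11 to 1.57). Hgf, the ligand of Met, was at 10.9 to 69.7 CPM in treated and 24.6 to 86.1 CPM in control tumours. Igf2, the other ligand of Igf1r, held 29 counts in all and was not tested, as were Mst1 and Igfbp1.

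In the FGF list 7 of 13 genes were tested, 0 were called, and 1 was higher and 1 lower at an unadjusted p under 0.05 (1.59% and 1.66% of all tested genes were), with a median of 0.04. Fgf10, a stromal ligand of Fgfr2 needed for mammary bud formation in mice, was at 3.09, 3.03, 6.65, 3.38 and 2.57 CPM in TMA-ARB replicates 6 to 10, against 5.32, 12.3, 3.40, 7.89 and 10.9 CPM in control replicates 1 to 5. It was below the control mean in 5 of 5 treated tumours, with a log2 fold change of -1.09 ± 0.40 (edgeR unadjusted p = 0.0163, adjusted p = 0.997). Fgf7, another stromal ligand of Fgfr2, averaged 3.36 ± 1.41 CPM under TMA-ARB and 1.85 ± 0.634 CPM in controls (0.86 ± 0.44). Fgfr2, a receptor of epithelium, had a log2 fold change of 1.35 ± 0.60 (edgeR unadjusted p = 0.0402, adjusted p = 0.997), and of 0.41 without TMA-ARB replicate 6, where it was at 9.51 CPM against 1.22 to 2.15 CPM in the other treated tumours and 0.933 to 1.77 CPM in controls. With the luminal marker mean as a covariate the log2 fold change of Fgfr2 was 0.44 (edgeR unadjusted p = 0.382). Fgf1, Fgf18, Fgf21, Fgfr3, Fgfr4 and Klb were below the filter.

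Downstream of the receptors, 0 of 18 tested adaptors and proximal signalling genes were called (14 negative, median -0.13), and 0 of 20 feedback inhibitors and ERK target genes (14 negative, median -0.14). Over all tested genes 6635 of 14063 were negative and the median was 0.02. The lean in sign was not tested. With all 10 libraries in edgeR and no covariate, no member of either list had an unadjusted p under 0.05. Pik3r1, a regulatory subunit of phosphoinositide 3-kinase, averaged 20.5 ± 7.98 CPM under TMA-ARB and 27.3 ± 2.32 CPM in controls (-0.41 ± 0.23). Without TMA-ARB replicate 6 its log2 fold change was -0.69 (edgeR unadjusted p = 0.00123, adjusted p = 0.544), and limma-voom gave -0.58 (unadjusted p = 0.00562, adjusted p = 0.491). With the luminal marker mean as a covariate it was -0.67 (edgeR unadjusted p = 0.00329, adjusted p = 0.741). Without TMA-ARB replicate 10 it was -0.33. All but the last of these fits had more genes at an unadjusted p under 0.05 than the 457 of 14063 in the main edgeR fit. Without TMA-ARB replicate 6 there were 1219 of 14337, with limma-voom 1397 of 14063, and with the luminal covariate 929 of 14063. Ptpn11, which encodes the phosphatase SHP2, had -0.30 ± 0.25 (-0.53 without TMA-ARB replicate 6, edgeR unadjusted p = 0.0337, and -0.16 without control replicate 2). Shc1, an adaptor, had -0.18 ± 0.14. Lrig1, an inhibitor of ErbB receptors, had -0.27 ± 0.20 (-0.14 without TMA-ARB replicate 8, and -0.41 by limma-voom with an unadjusted p of 0.0209). Cblb, a ubiquitin ligase of receptors, had -0.39 ± 0.31 (-0.74 without TMA-ARB replicate 8, edgeR unadjusted p = 0.0137, and -0.14 without control replicate 2). Without TMA-ARB replicate 8, 689 of 14335 genes had an unadjusted p under 0.05. No adjusted p of a named gene was below 0.491 under any alternative. Phlda1, an ERK-responsive gene, had 0.52 ± 0.34 (0.15 without TMA-ARB replicate 9). Grb7, an adaptor gene that lies beside Erbb2, was below the filter.

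Among hormone receptor partners and target genes 11 of 19 were tested and 0 were called, with 6 positive and a median of 0.05. No member had an unadjusted p under 0.05 with all 10 libraries in edgeR and no covariate. Ptges3, a co-chaperone of steroid receptors, averaged 441 ± 103 CPM under TMA-ARB and 340.3 ± 60.5 CPM in controls (0.37 ± 0.21; 0.49 without TMA-ARB replicate 6, edgeR unadjusted p = 0.0218, adjusted p = 0.544). In that fit without TMA-ARB replicate 6, 1219 of 14337 genes had an unadjusted p under 0.05. Nrip1, a corepressor, had a log2 fold change of 0.18 ± 0.20 (0.07 without TMA-ARB replicate 8). Xbp1, a stress-response factor that is an oestrogen target in breast cancer cells, had -0.16 ± 0.17 (-0.07 without control replicate 2). Greb1, Tff1, Tnfsf11, Elf5, Esr2 and Calca were below the filter, as were Prlr and Foxa1. Greb1, an oestrogen target in human breast cancer cells, was at most 0.338 CPM in any library.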

How the data were processed

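Poly-A RNA of 10 tumours was sequenced from strand-marking libraries, per the labels' protocols. The authors deposited estimated counts for 37882 genes; Salmon and mm10 are named in the submitters' processing notes, and the version, annotation and strand setting are not given in the sources used here. Salmon divides reads among similar transcripts. The table held whole values only, so rounding changed none. Columns were matched by the sample names in the labels, with 0 left over. No use of molecular identifiers is described, so limits from counts of 0 cover counting error only.

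Groups were compared in edgeR 4.0.16 (R 4.3.3) by quasi-likelihood, after TMM scaling and filterByExpr defaults, with robust dispersions and Benjamini-Hochberg adjustment over 14063 genes. The SE is the absolute log2 fold change over the square root of F. Log2 CPM used a prior count of 2. Correlations used 100000 permutations; exact permutation tests of 5 against 5 cannot go below 0.00794. The step was also run on simulated counts, drawn independently for each gene and without shifts shared across a library. That run therefore does not show what change could have been seen in these tumours. Exon lengths and coordinates come from GENCODE mouse release 21 on GRCm38, the assembly of mm10. Alternatives were RLE scaling, DESeq2 1.42.0, limma-voom (limma 3.58.1) with sample weights, other filters, covariates and leaving out each library. The receptors and gene lists were chosen with earlier results of these data known. Named were all receptors, the 3 genes of smallest p in each list, and for each receptor of at least 5 CPM the 3 genes of highest r.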

Additional observations from a re-analysis of the deposited data

Results flagged for a closer look

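Within each group of 5 tumours, a value was singled out when its gap to the nearest other tumour was more than 0.71 of the group's range; chance gives about 1 in 20 such groups, and 5 of 55 groups examined met it. Erbb3 was at 3.51 CPM in TMA-ARB replicate 6, far from the other treated tumours at 0.0739 to 0.724 CPM. Fgfr2 was at 9.51 CPM in the same tumour, with the others at 1.22 to 2.15 CPM. Pik3r1 was at 34.7 CPM in the same tumour, with the others at 16.3 to 18.1 CPM. Fgf10 was at 6.65 CPM in TMA-ARB replicate 8, with the others at 2.57 to 3.38 CPM. Cblb was at 51.6 CPM in TMA-ARB replicate 8, with the others at 16.6 to 23.8 CPM.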

How the results depend on the processing

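No receptor and no pathway gene was called by edgeR under any alternative, nor by DESeq2 or limma-voom; over all genes DESeq2 called 2 (826 at an unadjusted p under 0.05), where edgeR called 0 (457), and the fits with 1 library left out each called 0. Of 428 fold changes of named genes under alternatives, 420 kept their direction and none changed its call (smallest adjusted p 0.491). The 8 that reversed were Erbb2 (-0.048), Igf1r (-0.52), Egf (-0.059), Ptpn11 (0.013) and Phlda1 (-0.13) with the mitochondrial share as a covariate, Met (-0.0063) with limma-voom, and Igf1r without TMA-ARB replicate 8 (-0.11) or control replicate 1 (-0.04); with 1 library left out Igf1r ran from -0.11 to 0.36. The cause was not tested. Per kb of the longest transcript the level of Esr1 was 0.402, of Igf1r 11.1 and of Fgfr1 73.2 CPM. The difference in mitochondrial share was 2.69 to 8.38 points with 1 library left out (exact permutation p = 0.0397 without TMA-ARB replicate 6), and that in total counts -1072260 to -360889. The scalings of the correlations with the mitochondrial share were chosen after seeing the data. No paired analysis was made because the labels give no pairing of treated with control tumours. Erbb3, Erbb4 and Pgr were below the low-count filter at this depth.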
